A study of Homo sapiens with 18 samples.

Results

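YSCCC is a human cholangiocarcinoma line, and its baseline transcriptome is described here from the libraries that carried a control hairpin. Those are 3 YSCCC libraries, set against 3 libraries each of HuCCT1 and KKU-100, 9 of the 18 libraries of the series. Per the labels YSCCC derives from liver, HuCCT1 from bile duct and KKU-100 from biliary tract. All 3 lines are labelled cholangiocarcinoma cells of WT genotype, and all of these libraries come from stable lines made with a lentivirus that carries the control hairpin (shControl). YSCCC and HuCCT1 grew in RPMI-1640 and KKU-100 in Ham's F12, each with fetal bovine serum, so line and medium cannot be told apart where YSCCC is set against KKU-100. Each line is a single line with 3 biological replicates. The p-values therefore measure the spread between replicate cultures of that line, not between patients or tumours. Polyadenylated RNA was sequenced, and a level is given in CPM, the count of a gene scaled to the size of its library.

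Bile ducts are lined by cholangiocytes, epithelial cells marked by keratins 7 and 19, EpCAM and E-cadherin. Their identity is set by transcription factors such as SOX9 and members of the ONECUT, FOXA and GATA families. Cholangiocarcinoma arises from this epithelium or from liver cells that take on its features, and its lines can carry genes of other epithelia or of germ cells.

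A gene was called for YSCCC where it differed from HuCCT1 and from KKU-100 in the same direction, each at a Benjamini-Hochberg adjusted p below 0.05 in edgeR's quasi-likelihood test. Of 18010 genes tested, 3136 (17.4%) were higher in YSCCC than in each other line and 2462 (13.7%) were lower. At least 2-fold differences against each line were reached by 2390 higher genes (13.3%) and 1443 lower genes (8.01%). YSCCC differed from HuCCT1 at 10512 genes (58.4%) and from KKU-100 at 10937 genes (60.7%); both comparisons use the same YSCCC libraries. Against the equally weighted mean of both lines 10436 genes (57.9%) differed, and 1420 genes (7.88%) differed from the lines in opposite directions. The 3 YSCCC libraries lay above all 6 others at 3574 genes (19.8%) and below them at 2947 (16.4%). Of the higher genes, 756 had a mean under 3 counts per library in both other lines. Of the lower genes, 235 had such a mean in YSCCC. The shares of 17.4% and 13.7% are the background for each gene group below. The groups hold 1157 listed genes, of which 1013 passed the filter on low counts. A gene near 0 in both other lines passed it only through YSCCC and could only be called higher. Such members are counted beside each group that held 2 or more of them, and other groups with a count held at most 1. The exception is ZNF genes outside chromosome 19, where such members were not counted.

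Library totals lay between 21056732 and 24967367 counts over 36601 gene IDs. Between 24698 and 25204 IDs had a count in YSCCC libraries, against 22342 to 23170 in HuCCT1 and 20850 to 21700 in KKU-100. Some libraries stood apart from the others of their line. YSCCC replicate 3 had a summed level of endoplasmic reticulum chaperones of 12023 CPM and of cell cycle genes of 1322 CPM. The other YSCCC libraries had 7638 and 7454 CPM of the chaperones and 4764 and 4637 CPM of the cell cycle genes. HuCCT1 replicate 2 had a summed level of interferon-stimulated genes of 14953 CPM, against 1996 and 3122 CPM in the other HuCCT1 libraries. KKU-100 replicate 1 had 1724 CPM of the cell cycle genes, against 664 and 720 CPM in the other KKU-100 libraries. Where leaving out 1 library moves a printed count by more than 1.5 times, the count without it is given.

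Epithelial markers of the bile duct were present in YSCCC, with E-cadherin above both other lines and SOX9 below both. CDH1, the E-cadherin of epithelial contacts, had 1459, 1330 and 878 CPM in YSCCC, against 156, 441 and 241 CPM in HuCCT1 and 0.784, 1.26 and 4.93 CPM in KKU-100. The 3 YSCCC libraries lay above all 6 others, with log2 differences of 2.13 (SE 0.56, edgeR adjusted p = 0.0078) against HuCCT1 and 9.03 (SE 0.77, adjusted p = 6.16e-06) against KKU-100. SOX9, a ductal transcription factor, had 65.8, 81.8 and 48.1 CPM in YSCCC, against 191, 214 and 145 CPM in HuCCT1 and 301, 187 and 290 CPM in KKU-100. Its log2 differences were -1.49 (SE 0.25, edgeR adjusted p = 0.000622) and -1.99 (SE 0.26, adjusted p = 9.67e-05), and the groups did not overlap. CDH1 and SOX9 were the only called genes among the 8 duct markers.

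The other duct markers described here set YSCCC apart from one line but not from both in one direction. EPCAM averaged 270 ± 71.0 CPM in YSCCC and 338 ± 22.7 CPM in HuCCT1 (SD, n = 3 each) and had 0 counts in all KKU-100 libraries. KRT19 had 1002, 1030 and 388 CPM in YSCCC, against 1527, 2006 and 1528 CPM in HuCCT1, and 0 to 4 counts in KKU-100. KRT7 had 617, 617 and 684 CPM in YSCCC, which lay between 1970, 2645 and 2134 CPM in HuCCT1 and 193, 87.1 and 144 CPM in KKU-100. The partner keratins KRT8 and KRT18 lay above KKU-100 and were not called against HuCCT1, with log2 differences of 0.17 (SE 0.29) and 0.25 (SE 0.18). Markers of hepatocytes were near 0 in YSCCC, with at most 1 count of ALB, 1 of APOA1 and 2 of TTR per library. They were near 0 in the other lines too, with at most 2, 6 and 0 counts in HuCCT1 and 6, 0 and 0 in KKU-100.

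**Figure D1:**
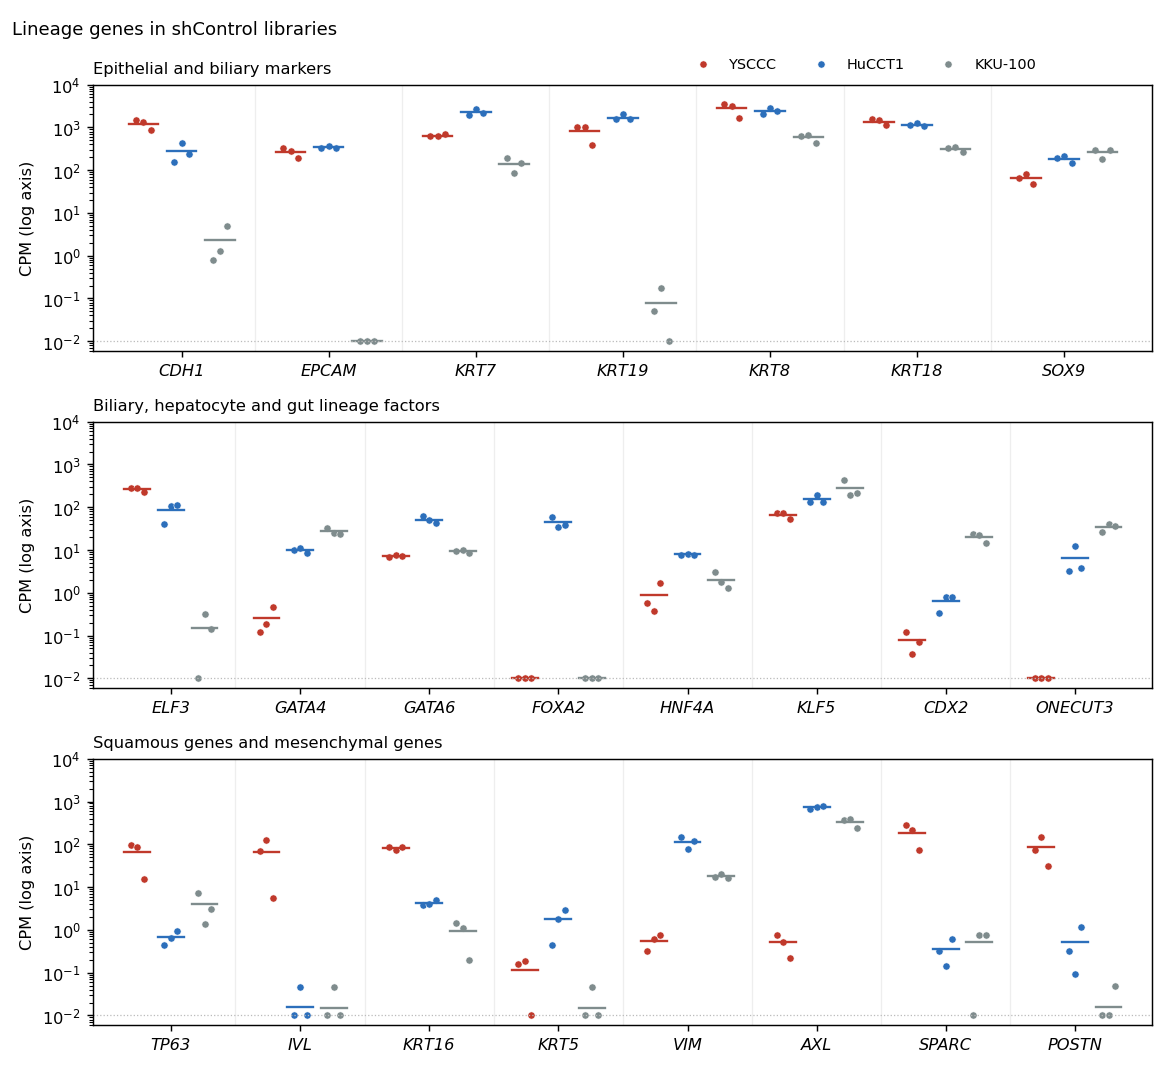
Levels of lineage genes in each shControl library (points) and the mean of each line (bars), in CPM on a log axis, with YSCCC in red, HuCCT1 in blue and KKU-100 in grey. Values of 0 are drawn at the dotted line at 0.01 CPM; CDH1, ELF3, TP63, IVL, KRT16, SPARC and POSTN lie highest in YSCCC, and SOX9, GATA4, KLF5, VIM and AXL lie lowest.

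Transcription factors of the biliary lineage were mostly lower in YSCCC or shared with one of the lines. Of 19 tested, 1 was higher and 7 were lower than in each other line, and the median log2 ratio of YSCCC to the mean of the lines was -1.56, beside 0.05 over all genes tested. ELF3, an epithelial ETS factor that is recurrently mutated in biliary cancers, had 285, 283 and 221 CPM in YSCCC, against 41.3, 108 and 112 CPM in HuCCT1 and 0, 0.315 and 0.145 CPM in KKU-100. Every YSCCC library lay above the others (log2 difference against HuCCT1 1.60, SE 0.39, edgeR adjusted p = 0.00548). GATA4, a factor of foregut endoderm, had 0.122, 0.190 and 0.467 CPM in YSCCC, against 10.2, 11.1 and 8.34 CPM in HuCCT1 and 32.0, 25.6 and 23.9 CPM in KKU-100. TEAD4, PDX1, KLF5, TBX3 and ONECUT1 were also lower; ONECUT1 and PDX1 averaged under 2 CPM in each line. The calls for ONECUT1 and TBX3 were lost without some single libraries and that for KLF5 without YSCCC replicate 3 and HuCCT1 replicate 2 together, so 5 to 7 factors were lower over the settings that leave out 1 library. None of these 3 genes was called lower among the shRNF213 libraries. FOXA2, a pioneer factor of endoderm, had 0 counts in YSCCC and in KKU-100 and 60.5, 35.0 and 38.8 CPM in HuCCT1. GATA6 had 6.69, 7.56 and 7.18 CPM in YSCCC, against 62.2, 49.8 and 42.5 CPM in HuCCT1, and was not called against the 9.41, 9.83 and 8.50 CPM of KKU-100 (log2 difference -0.37, SE 0.19, edgeR adjusted p = 0.114).

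Factors of neighbouring organs gave a similar count. Of 13 tested stomach, intestine and pancreas genes, 6 were lower in YSCCC and 2 were higher. FOXQ1, a forkhead factor of gastric epithelium, had 0.612, 0.684 and 1.76 CPM in YSCCC, against 40.1, 52.2 and 44.9 CPM in HuCCT1 and 20, 13.5 and 8.89 CPM in KKU-100. CDX2, the intestinal homeobox factor, averaged 0.0774 CPM in YSCCC, 0.639 CPM in HuCCT1 and 20.3 CPM in KKU-100. ANXA10, a gastric annexin, had 0 or 1 count in YSCCC libraries and averaged 5.07 CPM in HuCCT1 and 6.05 CPM in KKU-100. The higher genes were SOX2 and NKX6-1, at means of 1.20 and 2.64 CPM in YSCCC, and both are named because the count is small. Both had a mean under 3 counts per library in both other lines, so they could only be called higher. Of 11 hepatocyte factors tested, PPARA and NR1I3 were higher and FOXP1 and ONECUT3 lower. FOXP1 lost its call in 11 of the alternative settings, among them relative log expression factors and the shRNF213 libraries. PPARA, the fatty acid sensing nuclear receptor, had 77.4, 57.2 and 170 CPM in YSCCC, against 33.6, 28.9 and 30.5 CPM in HuCCT1 and 40.4, 39.4 and 56.2 CPM in KKU-100. ONECUT3 had 0 counts in YSCCC and averaged 6.54 CPM in HuCCT1 and 34.4 CPM in KKU-100. HNF4A, the central hepatocyte factor, averaged 0.880 ± 0.706 CPM in YSCCC, 7.87 ± 0.114 CPM in HuCCT1 and 2.03 ± 0.860 CPM in KKU-100 (SD, n = 3 each) and was not called against KKU-100 (edgeR adjusted p = 0.0722). The lower count of hepatocyte factors was 4 without YSCCC replicate 3 and 1 without YSCCC replicate 1 or 2, HuCCT1 replicate 2 or 3, or KKU-100 replicate 2 or 3. NR1I3 lost its call without YSCCC replicate 2 or KKU-100 replicate 2 or 3.

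Part of the squamous epithelium genes were higher in YSCCC. Of 17 tested, 9 (52.9%) were higher, beside 17.4% of all genes, and none was lower in edgeR, with 0 lower also at an unadjusted p of 0.05 and in DESeq2 (7 to 9 were higher when 1 library was left out). Of the higher genes, 3 had a mean under 3 counts per library in both other lines. TP63, the master factor of stratified epithelium, had 96.5, 85.6 and 15.6 CPM in YSCCC, against 0.452, 0.659 and 0.954 CPM in HuCCT1 and 7.27, 1.40 and 3.09 CPM in KKU-100. Involucrin, IVL, a protein of the cornified envelope, had 71.2, 126 and 5.53 CPM in YSCCC and 0 or 1 count in each library of the other lines. SPRR3, another envelope protein, had 43.9, 52.7 and 2.69 CPM in YSCCC, against 0 counts in HuCCT1 and at most 0.180 CPM in KKU-100. For all 3 genes YSCCC replicate 3 was the lowest of its line and still above the 6 other libraries. KRT16, a keratin of activated keratinocytes, did not share that pattern, with 84.9, 73.2 and 84.5 CPM in YSCCC, against 3.82, 4.05 and 5.10 CPM in HuCCT1 and 1.46, 1.13 and 0.193 CPM in KKU-100. The basal keratins were near 0 in YSCCC, where KRT5 averaged 0.118 CPM and KRT14 averaged 0.640 CPM. The summed squamous level was 426, 445 and 180 CPM in YSCCC, which overlapped 132, 251 and 160 CPM in HuCCT1. SPRR1A and SPRR1B are near-identical copies, and counting may have split their reads.

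Of 35 epithelial junction genes tested, 10 were higher than in each other line in edgeR and none was lower, with 0 lower also at an unadjusted p of 0.05 and in DESeq2. Without YSCCC replicate 3, 1 was lower. Besides CDH1, the desmosomal cadherin DSC2 had 129, 103 and 60.9 CPM in YSCCC, against 18.5, 27.9 and 24.5 CPM in HuCCT1 and 3.82, 3.65 and 3.67 CPM in KKU-100. F11R, the junctional adhesion molecule A, averaged 1129 CPM in YSCCC, 322 CPM in HuCCT1 and 143 CPM in KKU-100. GRHL1, a grainyhead factor of epithelia, had 124, 97.2 and 68.5 CPM in YSCCC, against 15.4, 18.4 and 19.4 CPM in HuCCT1 and 0.627, 0.901 and 1.21 CPM in KKU-100. The tight junction genes TJP3 and MARVELD3 were higher as well, with log2 differences of 4.01 (SE 0.37) and 2.74 (SE 0.29) against HuCCT1. The membrane mucins MUC1 and MUC20 were higher too, while MUC13 was lower. MUC1 had 424, 282 and 239 CPM in YSCCC, against 23, 26.9 and 25.6 CPM in HuCCT1 and 14.6, 16.4 and 27.1 CPM in KKU-100. MUC20 had 535, 602 and 716 CPM in YSCCC, against 84.8, 122 and 60.3 CPM in HuCCT1 and 2.40, 1.58 and 5.41 CPM in KKU-100. The gel-forming mucin MUC5AC averaged 0.539 CPM in YSCCC, 59.7 CPM in HuCCT1 and 0.0174 CPM in KKU-100. In all, 5 of 21 mucin genes and mucin glycosyltransferases were higher and 2 were lower. Of 19 biliary transport and surface genes tested, 3 were higher and 3 lower. The transporter ABCB1, which pumps drugs out of cells, had 48.7, 39.8 and 54.9 CPM in YSCCC and 0 to 4 counts in each library of the other lines. The transporters ABCC3 and ABCC4 were lower, and ABCC3 was not called among the shRNF213 libraries.

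Mesenchymal genes did not move as a group: 7 of 24 were higher in YSCCC and 6 were lower. Of the 7, 2 had a mean under 3 counts per library in both other lines and could only be called higher. Those lower held the intermediate filament VIM, with 0.327, 0.608 and 0.754 CPM in YSCCC, against 149, 77.7 and 120 CPM in HuCCT1 and 17.1, 20.3 and 16.5 CPM in KKU-100. CDH2, the N-cadherin, had 9.96, 15.2 and 4.81 CPM in YSCCC, against 136, 140 and 166 CPM in HuCCT1 and 19.2, 33.2 and 30.2 CPM in KKU-100. The repressor ZEB1, the crosslinking enzyme LOX and the tropomyosin TPM2 were lower too, with means of 1.54, 3.08 and 1.86 CPM in YSCCC. Those higher were led by secreted matrix proteins. SPARC, a collagen-binding glycoprotein, had 279, 215 and 71.7 CPM in YSCCC, against 0.329, 0.141 and 0.622 CPM in HuCCT1 and 0, 0.766 and 0.773 CPM in KKU-100. POSTN, periostin, had 75.0, 149 and 31.2 CPM in YSCCC, against 0.329, 0.0942 and 1.16 CPM in HuCCT1 and at most 0.0483 CPM in KKU-100. The repressors of E-cadherin TWIST1 and SNAI1 were higher as well, at low levels. SNAI1 had 7.35, 13 and 10.3 CPM in YSCCC, against 1.23, 1.74 and 2.86 CPM in HuCCT1 and 2.61, 2.43 and 3 CPM in KKU-100. TWIST1 had 1.31, 0.873 and 2.59 CPM in YSCCC and 0 counts in all 6 other libraries. The fibronectin receptor subunit ITGA5 averaged 265 CPM in YSCCC, 42.2 CPM in HuCCT1 and 64.6 CPM in KKU-100. Since these are bulk libraries, fewer cells of a type and less RNA per cell cannot be told apart.

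Matrix genes also went both ways, with 5 of 35 collagens and glycoproteins higher and 11 lower in YSCCC. COL5A1, a fibril collagen chain, had 51.9, 27.4 and 43.3 CPM in YSCCC, against 0.164, 0 and 0.249 CPM in HuCCT1 and 0.105, 0.0901 and 0.0483 CPM in KKU-100. Perlecan, HSPG2, had 1147, 1029 and 640 CPM in YSCCC, against 171, 489 and 308 CPM in HuCCT1 and 416, 266 and 279 CPM in KKU-100. Both groups of libraries were fully separated for these genes. In the other direction, the type VI collagen chains COL6A1 and COL6A2 averaged 4 and 3.25 CPM in YSCCC, 283 and 456 CPM in HuCCT1 and 57.3 and 41.4 CPM in KKU-100. COL8A1 had 0.163, 0.152 and 0.108 CPM in YSCCC, against 205, 177 and 290 CPM in HuCCT1 and 61.4, 28.8 and 46.9 CPM in KKU-100. The membrane protease MMP14 averaged 1.05 CPM in YSCCC, 107 CPM in HuCCT1 and 4.31 CPM in KKU-100, and the protease inhibitor TIMP1 had 26.0, 31.7 and 31.2 CPM in YSCCC, against 156, 144 and 136 CPM in HuCCT1 and 327, 609 and 406 CPM in KKU-100. MMP14 and TIMP1 were lower, but of 36 matrix proteases and inhibitors tested, 7 were higher and 6 lower. Of the 7 higher ones, 2 had a mean under 3 counts per library in both other lines and could only be called higher. Of 28 integrin and laminin genes, 4 were higher and 3 lower. ITGB6, which pairs with an alpha chain to activate latent TGF-beta, had 125, 117 and 140 CPM in YSCCC, against 11.9, 19.7 and 17.6 CPM in HuCCT1 and 0 or 1 count in KKU-100.

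**Figure D2:**
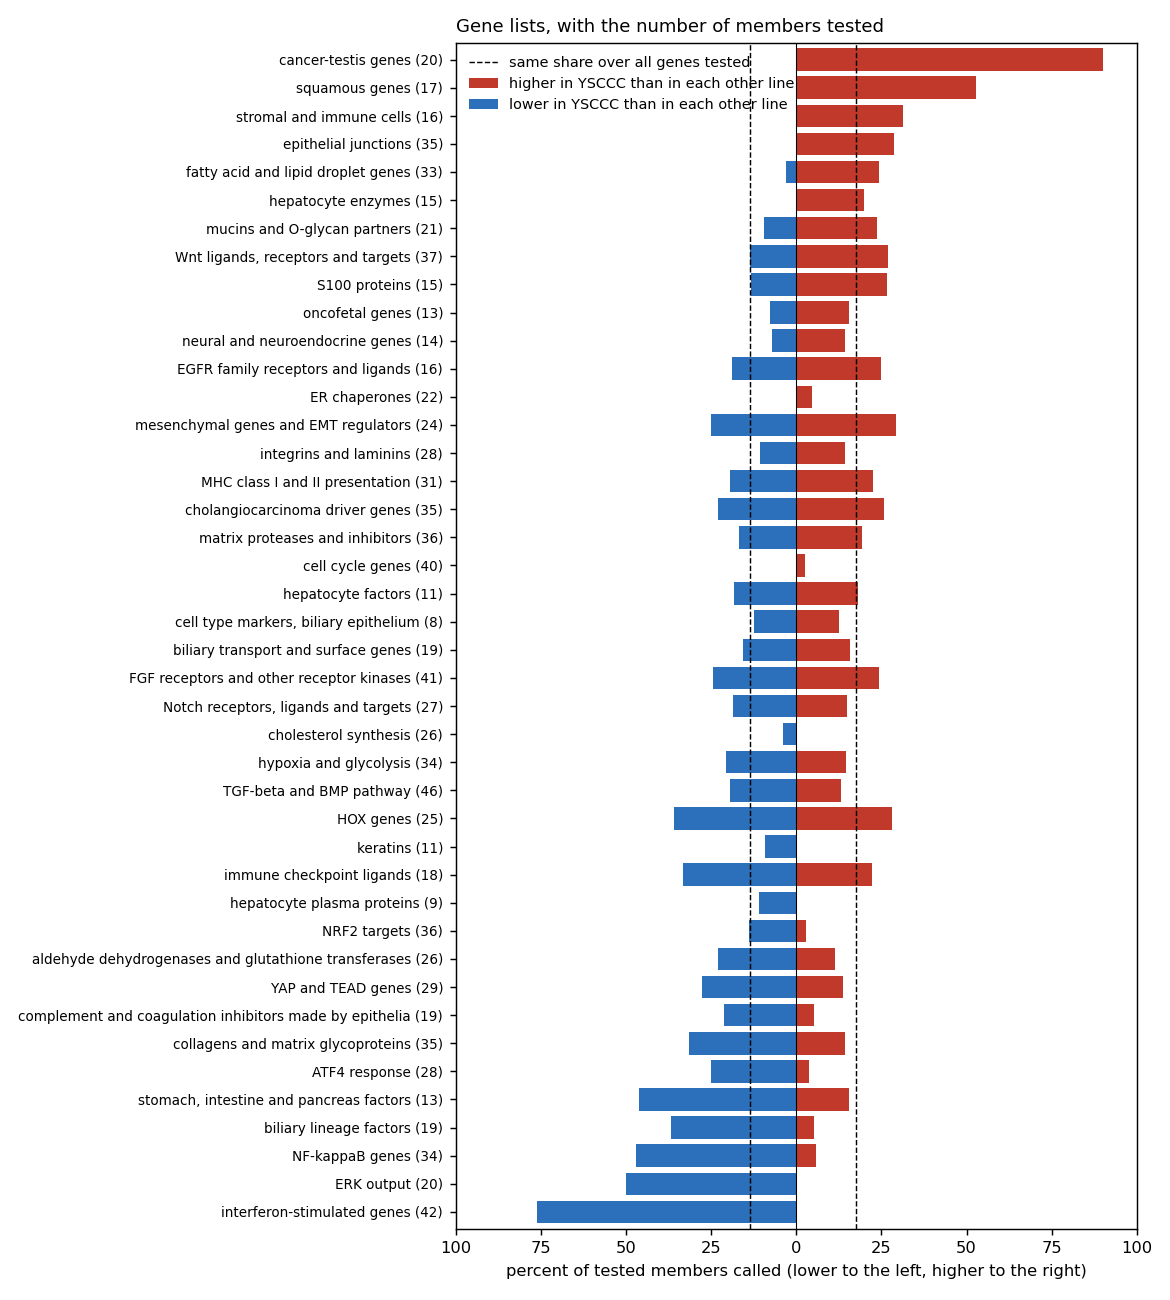
Percent of the tested members of the gene lists that were higher (red, to the right) or lower (blue, to the left) in YSCCC than in each other line, with the number tested in brackets; dashed lines mark the shares over all genes tested, 17.4% higher and 13.7% lower. Of the lists drawn, interferon-stimulated genes have the highest share of lower members, 76.2%; the 90.0% higher of the cancer-testis genes is largely set by the filter on low counts.

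Cancer-testis genes are normally restricted to germ cells, many of them lie on the X chromosome, and tumours express them where promoter methylation is lost. Of 30 listed, 20 passed the filter and 18 of these were called higher. That count is largely set by the filter, since 11 of the 18 had a mean under 3 counts per library in both other lines and passed it only through YSCCC. The levels are therefore given as a description. The summed level of the 20 genes was 850, 806 and 621 CPM in YSCCC, against 1.0, 1.3 and 1.6 CPM in HuCCT1 and 16, 12.3 and 2.9 CPM in KKU-100. MAGEA4 had 80.7, 77.1 and 72.1 CPM in YSCCC, against 0 counts in HuCCT1 and at most 1 count in KKU-100. PRAME, a retinoic acid receptor repressor, had 69.1, 47.4 and 36.7 CPM in YSCCC and at most 1 count per library elsewhere. CTAG2 had 88.1, 86.3 and 65.7 CPM in YSCCC and at most 0.123 CPM elsewhere. MAGEA1 and SSX1 were not called; MAGEA1 averaged 2.23 CPM in YSCCC and 2.64 CPM in KKU-100.

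The MAGE, GAGE and PAGE genes are close copies, so reads can be split between them. MAGEA3 and MAGEA6 are identical at 300 of 300 positions of their RefSeq promoter windows (GRCh38.p14, 250 bases before to 50 bases after the start). The last 30 bases before the start are shown for this pair and for PRAME because CpG dinucleotides, in capitals, are the sites of methylation in these promoters. The windows are chrX:152698764-152698793 on the plus strand for MAGEA3, chrX:152769690-152769719 on the minus strand for MAGEA6 and chr22:22559266-22559295 on the minus strand for PRAME.
MAGEA3: ctgagcaaCGagCGaCGgcctgaCGtCGgc
MAGEA6: ctgagcaaCGagCGaCGgcctgaCGtCGgc
PRAME: cagaCGCGagttcCGgCGaggcttcagggt
Over the 300-base windows, the 16 of the 18 higher genes with an entry had a median of 13 CpG, beside 14 over 27305 promoters. Methylation was not measured here.

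Oncofetal and positional identity genes included near on-or-off differences. Of 13 oncofetal genes tested, 2 were higher and 1 was lower. When 1 library was left out, 1 to 2 were higher and 1 to 2 lower. LIN28B, an RNA-binding protein of embryonic cells that blocks let-7 processing, had 112, 94.5 and 88.8 CPM in YSCCC and 0 counts in all 6 other libraries. Against a floor of 3 counts per library this is at least 760-fold higher than in HuCCT1 and at least 677-fold higher than in KKU-100. LIN28B passed the filter only through YSCCC and could only be called higher. HMGA2, a chromatin protein and let-7 target, had 0.204, 0.0760 and 0.287 CPM in YSCCC, against 353, 283 and 228 CPM in HuCCT1 and 5.54, 23 and 9.76 CPM in KKU-100. Of the HOX genes, which record the position of a cell along the body axis, 7 of 25 were higher and 9 lower, and only 4 were higher where at least 1 CPM in 3 libraries was required. Of the 7, 4 had a mean under 3 counts per library in both other lines and could only be called higher. HOXC10, HOXC11 and HOXC12 were among these 4. The posterior HOXC genes lie side by side on chromosome 12 (GRCh38 53935328 to 53990279), and HOXC10, HOXC11, HOXC12 and HOXC13 were all higher, while HOXC6 and HOXC8 beyond them were lower. HOXC13 had 15.4, 25.5 and 17.7 CPM in YSCCC, against 0, 0.0471 and 0.0415 CPM in HuCCT1 and 0.105, 0.270 and 0.628 CPM in KKU-100, while HOXC10, HOXC11 and HOXC12 averaged 1.00, 0.677 and 2.74 CPM in YSCCC. The called HOXB genes on chromosome 17 were lower, with HOXB13, at a mean under 1 CPM in YSCCC, the exception. HOXB3 had 0.367, 0.266 and 0.359 CPM in YSCCC, against 138, 80.7 and 91.1 CPM in HuCCT1 and 7.48, 5.81 and 6.81 CPM in KKU-100. HOXB9 had 0.408, 0.304 and 1.69 CPM in YSCCC, against 17.9, 18.8 and 9.17 CPM in HuCCT1 and 35.2, 21.6 and 21.0 CPM in KKU-100. HOXB4, HOXB5, HOXB6 and HOXB8 were lower too, and antisense genes overlap this cluster, so their reads cannot be assigned where strand was not used.

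EGFR and ERBB3 were higher in YSCCC than in each other line, and the ligand gene EREG was near 0. EGFR had 4691, 4184 and 3177 CPM in YSCCC, against 1478, 1139 and 1026 CPM in HuCCT1 and 878, 313 and 469 CPM in KKU-100. The YSCCC libraries were above all others, with log2 differences of 1.73 (SE 0.35, edgeR adjusted p = 0.00174) and 2.86 (SE 0.36, adjusted p = 8.45e-05). ERBB3, its kinase-poor partner, had 508, 382 and 266 CPM in YSCCC, against 65.8, 102 and 76.0 CPM in HuCCT1 and 6.90, 3.56 and 4.25 CPM in KKU-100. NRG4, a neuregulin ligand, was also higher, at 9.35, 11.3 and 6.61 CPM in YSCCC, against 0.329, 0.235 and 0.415 CPM in HuCCT1 and 0.680, 1.26 and 0.966 CPM in KKU-100. Epiregulin, EREG, had 0.653, 0.494 and 0.503 CPM in YSCCC, against 509, 679 and 513 CPM in HuCCT1 and 469, 322 and 274 CPM in KKU-100. Its log2 differences were -10.00 (SE 0.34) and -9.32 (SE 0.33). ERRFI1, the feedback inhibitor of EGFR, averaged 208 CPM in YSCCC, 430 CPM in HuCCT1 and 922 CPM in KKU-100. Over the family 4 of 16 genes were higher and 3 lower, and the call for ERBB2, the fourth higher gene, was lost without YSCCC replicate 1 or 2 or any single library of the other lines.

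Other receptor kinases were called in both directions, 10 of 41 higher and 10 lower. Of the 10 higher genes, 2 had a mean under 3 counts per library in both other lines and could only be called higher. AXL had 0.776, 0.532 and 0.215 CPM in YSCCC, against 659, 757 and 791 CPM in HuCCT1 and 379, 388 and 243 CPM in KKU-100. Its ligand GAS6 had 0.122, 0.228 and 0.503 CPM in YSCCC, against 233, 207 and 218 CPM in HuCCT1 and 15, 40.1 and 26.8 CPM in KKU-100. Receptor and ligand were thus both lower in YSCCC than in each other line. FGF2 and its receptor FGFR1 were lower as well, at means of 4.90 and 13.2 CPM in YSCCC. KIT, the stem cell factor receptor, had 30.7, 26.2 and 1.51 CPM in YSCCC, against 1 to 4 counts in HuCCT1 and 0 counts in KKU-100. DDR1, a collagen receptor, had 589, 631 and 381 CPM in YSCCC, against 213, 254 and 247 CPM in HuCCT1 and 118, 188 and 257 CPM in KKU-100.

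Transcripts induced by ERK were lower in 10 of 20 cases and higher in none by edgeR, with 0 higher also at an unadjusted p of 0.05 and in DESeq2. The lower count was 9 to 11 when 1 library was left out, and the median log2 ratio to the mean of the lines was -1.38. FOSL1, an AP-1 subunit, had 1.39, 1.67 and 2.51 CPM in YSCCC, against 819, 465 and 468 CPM in HuCCT1 and 307, 150 and 95.8 CPM in KKU-100. MYC had 52.3, 46.2 and 40.6 CPM in YSCCC, against 173, 157 and 138 CPM in HuCCT1 and 232, 176 and 201 CPM in KKU-100. The feedback genes SPRY2, SPRY4 and DUSP6 were lower too, for example SPRY4 with 9.14, 11.1 and 17.5 CPM in YSCCC, against 101, 56.1 and 47.4 CPM in HuCCT1 and 112, 156 and 140 CPM in KKU-100. Not all members differed: DUSP5, SPRED2 and ETV1 were not called, and CCND1 averaged 184 CPM in YSCCC, 601 CPM in HuCCT1 and 213 CPM in KKU-100.

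**Figure D3:**
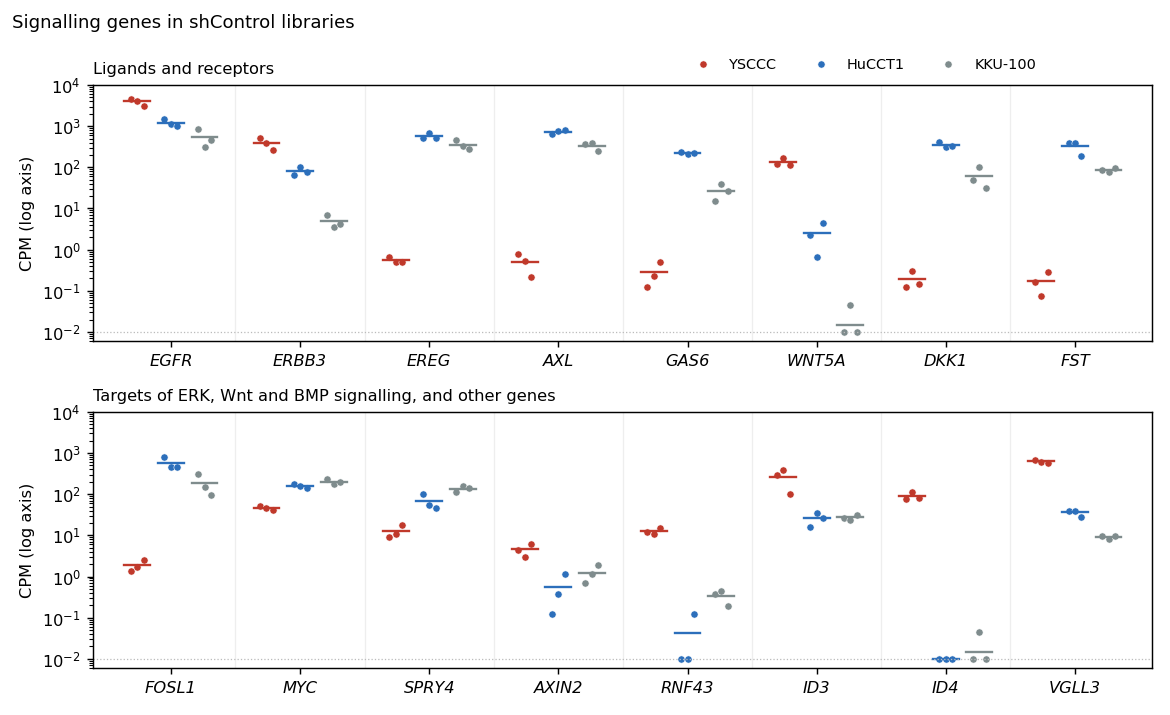
Levels of signalling genes in each shControl library (points) and the mean of each line (bars), in CPM on a log axis, with YSCCC in red, HuCCT1 in blue and KKU-100 in grey; values of 0 are drawn at the dotted line at 0.01 CPM. EGFR, ERBB3, WNT5A, ID3, ID4 and VGLL3 lie above and EREG, AXL, GAS6, DKK1, FST, FOSL1 and MYC below both other lines.

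The Wnt ligands WNT5A and WNT2B were higher in YSCCC and the secreted inhibitor DKK1 was lower, with 10 of 37 pathway genes higher and 5 lower. WNT5A, a ligand of the branch that does not run through beta-catenin, had 121, 168 and 115 CPM in YSCCC, against 2.30, 0.659 and 4.48 CPM in HuCCT1 and at most 1 count in KKU-100. WNT2B had 8.21, 7.44 and 14.8 CPM in YSCCC, against 1.81, 2.07 and 1.54 CPM in HuCCT1 and 1.25, 2.21 and 3.24 CPM in KKU-100. RNF43, a membrane ubiquitin ligase that removes Wnt receptors, had 12.1, 10.8 and 15 CPM in YSCCC, against 0, 0 and 0.124 CPM in HuCCT1 and 0.366, 0.451 and 0.193 CPM in KKU-100. DKK1, an inhibitor of Wnt co-receptors, had 0.122, 0.304 and 0.144 CPM in YSCCC, against 422, 307 and 322 CPM in HuCCT1 and 48.5, 104 and 30.9 CPM in KKU-100. AXIN2, a feedback target of beta-catenin, averaged 4.55 CPM in YSCCC, 0.554 CPM in HuCCT1 and 1.25 CPM in KKU-100, and its call was lost without YSCCC replicate 3 or KKU-100 replicate 1 or 2. The lower count was 3 without HuCCT1 replicate 1, KKU-100 replicate 3, or YSCCC replicate 1 or 2.

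Of 46 TGF-beta and BMP genes, 6 were higher and 9 lower in YSCCC. ID3 and ID4, which answer to BMP signals and restrain helix-loop-helix factors, were among the higher ones, while ID1 and ID2 were not called. ID4 had 77.9, 114 and 78.9 CPM in YSCCC, against 0 counts in HuCCT1 and at most 1 count in KKU-100. ID3 had 295, 380 and 101 CPM in YSCCC, against 16.2, 34.9 and 26.4 CPM in HuCCT1 and 26.8, 23.3 and 32.1 CPM in KKU-100. All YSCCC libraries were above the others for both genes. Follistatin, FST, which binds activin, had 0.163, 0.0760 and 0.287 CPM in YSCCC, against 394, 396 and 191 CPM in HuCCT1 and 86.6, 76.9 and 95.7 CPM in KKU-100. The ligands TGFB1 and TGFB2 were lower as well, and TGFB2 had 0.163, 0.266 and 0.503 CPM in YSCCC, against 71.8, 92.6 and 125 CPM in HuCCT1 and 94.1, 37.0 and 60.4 CPM in KKU-100. Among 29 genes of the YAP and TEAD list, 4 were higher and 8 lower. VGLL3, a TEAD cofactor, had 671, 616 and 590 CPM in YSCCC, against 39.9, 39.9 and 28.6 CPM in HuCCT1 and 9.83, 8.34 and 9.81 CPM in KKU-100, and its log2 differences were 4.11 (SE 0.19, edgeR adjusted p = 2.82e-07) and 6.07 (SE 0.21, adjusted p = 3.96e-08). AJUBA and FJX1, by contrast, averaged 30.1 and 1.6 CPM in YSCCC and were lower. In the Notch list 4 of 27 were higher and 5 lower; the ligand JAG1 had 28.7, 37.3 and 51.0 CPM in YSCCC, against 153, 206 and 159 CPM in HuCCT1 and 123, 144 and 84.4 CPM in KKU-100. HEYL, a Notch target, had 7.84, 7.48 and 10.3 CPM in YSCCC and 0 counts in all 6 other libraries.

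Interferon-stimulated genes, the antiviral transcripts that interferon induces through a response element in their promoters, were lower in YSCCC for 32 of 42 tested and higher for none in edgeR. At an unadjusted p of 0.05 and in DESeq2, 0 were higher as well. The lower count was 21 without HuCCT1 replicate 2, and it was 25 with DESeq2. In DESeq2, genes without an adjusted p-value, IFITM1 and OAS2 among them, counted as not called. The summed level was 1657, 1471 and 1570 CPM in YSCCC, against 1996, 14953 and 3122 CPM in HuCCT1 and 24311, 18275 and 17511 CPM in KKU-100. YSCCC thus had the lowest 3 libraries, with HuCCT1 replicate 1 close above them. IFI27 had 1.55, 0.760 and 2.37 CPM in YSCCC, against 165, 696 and 170 CPM in HuCCT1 and 554, 528 and 488 CPM in KKU-100. MX1, a GTPase that blocks viral replication, had 1.84, 2.13 and 4.92 CPM in YSCCC, against 25.2, 873 and 73.8 CPM in HuCCT1 and 483, 430 and 358 CPM in KKU-100. IFITM2, a membrane protein against virus entry, had 0.653, 0.494 and 1.44 CPM in YSCCC, against 60.8, 104 and 70.3 CPM in HuCCT1 and 65.6, 74.8 and 61.1 CPM in KKU-100. These 3 calls held without HuCCT1 replicate 2, and IFITM2 differed by -6.49 (SE 0.40) and -6.27 (SE 0.39) on the log2 scale. IFITM genes are close copies and their reads may be shared. Some members stayed measurable in YSCCC: IFIT2 averaged 175 CPM in YSCCC, 293 CPM in HuCCT1 and 1159 CPM in KKU-100, and IFI6 averaged 112, 171 and 987 CPM in the same order; neither was called.

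The response element was searched in the RefSeq promoter windows as GAAANNGAAA on both strands. It was present for 18 of the 24 lower genes with an entry (75.0%), for 4 of the 8 genes not called (50%) and for 1195 of all 27305 promoters (4.4%). The list was of interferon-stimulated genes, so its share beside that of all promoters describes the list and not YSCCC. A match describes the letters and not a bound site. Windows of 30 bases are shown for 5 lower genes called under every setting run, with the match in capitals and written on the strand that holds it. They are chr14:94110631-94110660 (plus strand), chr1:78620365-78620394 (plus), chr10:89327865-89327894 (minus), chr15:88638937-88638966 (plus) and chr19:17405735-17405764 (minus) of GRCh38.p14. IFI44L, IFIT3, ISG20 and BST2 were chosen after their values were seen.
IFI27: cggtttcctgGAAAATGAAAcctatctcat
IFI44L: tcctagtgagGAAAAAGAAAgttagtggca
IFIT3: gaggaaactgGAAAGTGAAActaatttaaa
ISG20: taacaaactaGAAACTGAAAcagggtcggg
BST2: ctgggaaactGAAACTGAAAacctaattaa
Of these, BST2, which tethers virus particles to the membrane, averaged 19.4 CPM in YSCCC, 159 CPM in HuCCT1 and 191 CPM in KKU-100, and IFI44L averaged 2.81, 87.4 and 730 CPM in the same order.

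Genes of NF-kappaB signalling were lower for 16 of 34 and higher for 2, and the lower ones ran from the factors to their targets. The subunit RELA averaged 82.6 CPM in YSCCC, 188 CPM in HuCCT1 and 189 CPM in KKU-100, and NFKB1, NFKB2 and RELB were lower too. Among targets, ICAM1, a leukocyte adhesion receptor, had 2.45, 0.949 and 1.94 CPM in YSCCC, against 108, 72.9 and 76.8 CPM in HuCCT1 and 15.4, 17.2 and 14.2 CPM in KKU-100. IL6 had 1.55, 2.54 and 1.22 CPM in YSCCC, against 20.1, 20.4 and 13.4 CPM in HuCCT1 and 303, 95.7 and 94.3 CPM in KKU-100. The chemokine genes CCL20, CXCL2, CXCL3 and CXCL8 were lower in the same way, while CCL28, a mucosal chemokine, averaged 63.2 CPM in YSCCC, 20.3 CPM in HuCCT1 and 0.159 CPM in KKU-100. Antigen presentation was split, with 7 of 31 genes higher and 6 lower. Class II genes were higher at low levels, as for HLA-DMA with 30.3, 37.1 and 31.6 CPM in YSCCC, against 4.40, 5.60 and 7.30 CPM in HuCCT1 and 5.85, 5.99 and 5.99 CPM in KKU-100. HLA-B, a class I gene, had 294, 305 and 360 CPM in YSCCC, against 519, 878 and 439 CPM in HuCCT1 and 2015, 1849 and 2380 CPM in KKU-100. The lower count was 3 without YSCCC replicate 1 or 2, and HLA alleles can differ from the mapped sequence. Of 18 checkpoint ligands, 4 were higher and 6 lower. NECTIN4, an adhesion protein used as an antibody target, had 124, 114 and 80.4 CPM in YSCCC, against 15.7, 26.6 and 17.0 CPM in HuCCT1 and 0.470, 0.541 and 0.290 CPM in KKU-100. PDCD1LG2, the ligand PD-L2, had 1.22, 0.836 and 5.06 CPM in YSCCC, against 15.9, 23.1 and 15.8 CPM in HuCCT1 and 20.4, 13.3 and 7.92 CPM in KKU-100. Of 15 S100 genes, 4 were higher and 2 lower. Of the 4, 2 had a mean under 3 counts per library in both other lines and could only be called higher. S100A9, a calprotectin subunit, had 647, 733 and 487 CPM in YSCCC, against 1.07, 1.32 and 1.20 CPM in HuCCT1 and 7.53, 5.36 and 13.3 CPM in KKU-100.

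Of 33 fatty acid and lipid droplet genes, 8 were higher and 1 lower in YSCCC, with 2 lower without KKU-100 replicate 1. CD36, a fatty acid translocase, had 303, 411 and 61.9 CPM in YSCCC, against 0.0822, 0 and 0.0415 CPM in HuCCT1 and 0.941, 0.901 and 4.49 CPM in KKU-100. The binding protein FABP5 went the other way, with 1.92, 1.97 and 1.01 CPM in YSCCC, against 19.5, 23 and 21 CPM in HuCCT1 and 41.3, 33.9 and 33.1 CPM in KKU-100. Glutamine synthetase, GLUL, had 254, 285 and 167 CPM in YSCCC, against 18.9, 4.28 and 31.5 CPM in HuCCT1 and 32.1, 40.4 and 46.0 CPM in KKU-100. ATF4 response genes were lower for 7 of 28 and higher for 1. That lower count was 17 without YSCCC replicate 3 and 3 without YSCCC replicate 1 or 2. ALDH1L2, a mitochondrial folate enzyme, had 2.04, 1.71 and 3.12 CPM in YSCCC, against 74.0, 120 and 80.8 CPM in HuCCT1 and 378, 166 and 157 CPM in KKU-100. Of 34 hypoxia and glycolysis genes, 5 were higher and 7 lower, with 8 higher without YSCCC replicate 3 and 3 without YSCCC replicate 2. The glucose transporter SLC2A3 averaged 4.93 CPM in YSCCC, 26.3 CPM in HuCCT1 and 2466 CPM in KKU-100. Cell cycle genes did not set YSCCC apart from both lines: 1 of 40 was called, E2F2, and it was not called without YSCCC replicate 1 or 2 or HuCCT1 replicate 1 or 2. Without YSCCC replicate 3, 2 were higher. Cholesterol synthesis had 1 lower gene of 26, CYP51A1, which was lost without YSCCC replicate 2 or KKU-100 replicate 2 or 3.

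Of 11 keratins 1 was lower, KRT81, a hair keratin with close copies, at 0.449, 0.456 and 1.69 CPM in YSCCC, against 1485, 2344 and 1564 CPM in HuCCT1 and 4.55, 2.84 and 7.88 CPM in KKU-100.

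A block of neighbouring genes on the short arm of chromosome 9 had no or almost no transcripts in YSCCC. From ACER2 to MTAP (GRCh38 19409009 to 21937651), ACER2, MLLT3, IFNB1, KLHL9, MIR31HG, IFNE and MTAP had 0 counts in all YSCCC libraries. FOCAD had at most 1 count there and HACD4, which was not called, at most 4. KLHL9, a ubiquitin ligase adaptor, had 48.1, 51.7 and 55.3 CPM in HuCCT1 and 145, 126 and 110 CPM in KKU-100, so it was at least 451-fold lower in YSCCC than in HuCCT1 and at least 1109-fold lower than in KKU-100. MLLT3, a reader of acylated histones, was at least 503-fold and 196-fold lower by the same floor. MTAP, the methylthioadenosine salvage enzyme, had 132, 144 and 160 CPM in HuCCT1 and 2.88, 5.00 and 3.19 CPM in KKU-100. The tumour suppressors next to it, CDKN2A and CDKN2B, had 0 counts in YSCCC and in KKU-100, against 75.1, 80.4 and 71.0 CPM and 123, 160 and 115 CPM in HuCCT1, and so were not called. At the near end of the block RPS6, a ribosomal protein gene, had 357, 321 and 326 CPM in YSCCC, against 1024, 1013 and 919 CPM in HuCCT1 and 718, 746 and 735 CPM in KKU-100. The region was singled out after its values were seen, and DNA copy number was not measured. Elsewhere in the genome CDKN1B, another inhibitor of cyclin-dependent kinases, was lower and had 53.2, 43.3 and 66.7 CPM in YSCCC, against 110, 115 and 126 CPM in HuCCT1 and 124, 85.5 and 130 CPM in KKU-100.

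**Figure D4:**
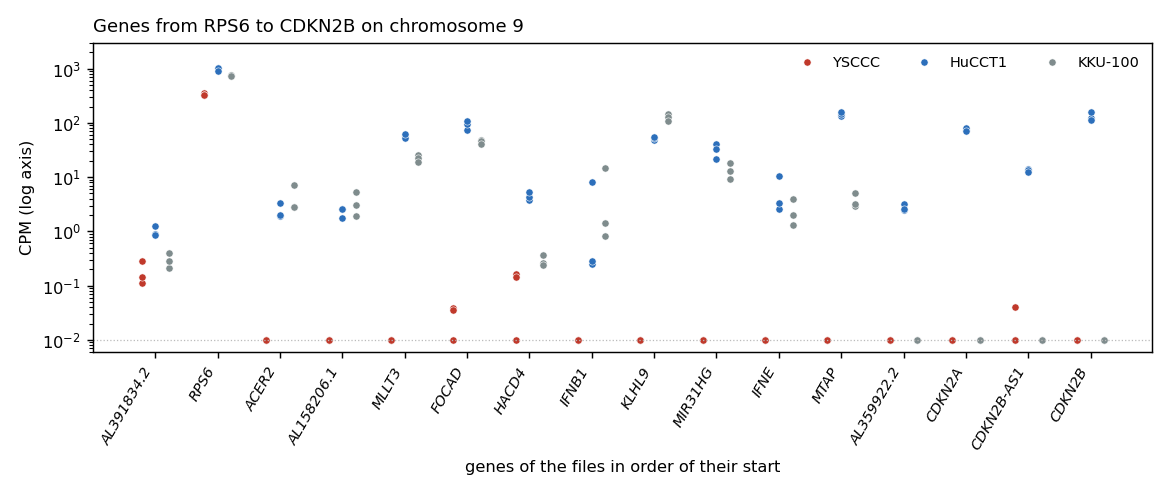
Levels of each gene from RPS6 to CDKN2B in each shControl library (points), in CPM on a log axis, with genes in order of their start and 0 drawn at the dotted line at 0.01 CPM. YSCCC (red) has 0 counts from ACER2 to MTAP apart from at most 1 count of FOCAD and 4 of HACD4, while CDKN2A and CDKN2B are at 0 in KKU-100 (grey) as well.

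The largest differences in either direction were nearly on-or-off. Among the 15 higher genes that lead by the smaller of both ratios, CRISP3, a secreted protein of glands, had 182, 221 and 74.9 CPM in YSCCC and 0 counts in all 6 other libraries. PLXDC2, a plexin-domain membrane protein, had 352, 350 and 177 CPM in YSCCC and at most 0.188 CPM elsewhere. NLGN4X, a neuroligin, had 191, 205 and 178 CPM in YSCCC and at most 2 counts elsewhere. MAEL, a germ cell piRNA factor outside the cancer-testis list, had 70.9, 64.5 and 137 CPM in YSCCC and at most 0.124 CPM elsewhere. Others were the matrix protein FBLN2, the basement membrane gene FREM2, the enzyme QPRT of NAD synthesis, SPART, VCX3B and ZNF813. Among the 15 lower genes, RAB34, a GTPase of primary cilia, had 0.122, 0.0760 and 0.0359 CPM in YSCCC, against 154, 133 and 162 CPM in HuCCT1 and 109, 143 and 152 CPM in KKU-100. SLCO1B3, an organic anion transporter of hepatocytes, had 0.0408, 0.228 and 0.144 CPM in YSCCC, against 185, 160 and 146 CPM in HuCCT1 and 88.1, 72.2 and 69.3 CPM in KKU-100. PID1, NPDC1, TCIRG1 and FAM167A were lower in the same way, as were EREG, FST, DKK1, COL8A1, AXL, FOCAD and KLHL9.

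The calls were unevenly spread over the chromosomes. On chromosome 16, 26.7% of the genes tested were higher and 3.5% lower, and the median log2 difference of genes of at least 5 CPM was 0.81 against HuCCT1 and 0.24 against KKU-100. Chromosomes 6 and 1 had 24.7% and 23.9% higher and 6.0% and 5.2% lower. On chromosomes 13 and 10, 26.1% and 24.8% were lower, against 16.7% and 12.7% higher. Zinc finger genes of chromosome 19, which are largely KRAB repressors of transposons, were a family picked after its values were seen. Of 232 ZNF genes tested there, 92 (39.7%) were higher and 5 (2.2%) lower, beside 41 (18.6%) and 22 (10.0%) of 220 ZNF genes on other chromosomes. Of the 92, 29 had a mean under 3 counts per library in both other lines and could only be called higher. Among the remaining 203 genes tested on chromosome 19, 63 were higher. Such members were not counted for ZNF genes on other chromosomes, so the shares of both families are not like for like. The lower count on chromosome 19 was 2 without YSCCC replicate 3 or HuCCT1 replicate 3, and 3 without YSCCC replicate 2 or KKU-100 replicate 2. Their summed level was 5408 CPM in YSCCC, 1968 CPM in HuCCT1 and 5131 CPM in KKU-100, so the sum does not set YSCCC apart from KKU-100. Close paralogs among them may share reads.

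**Figure D5:**
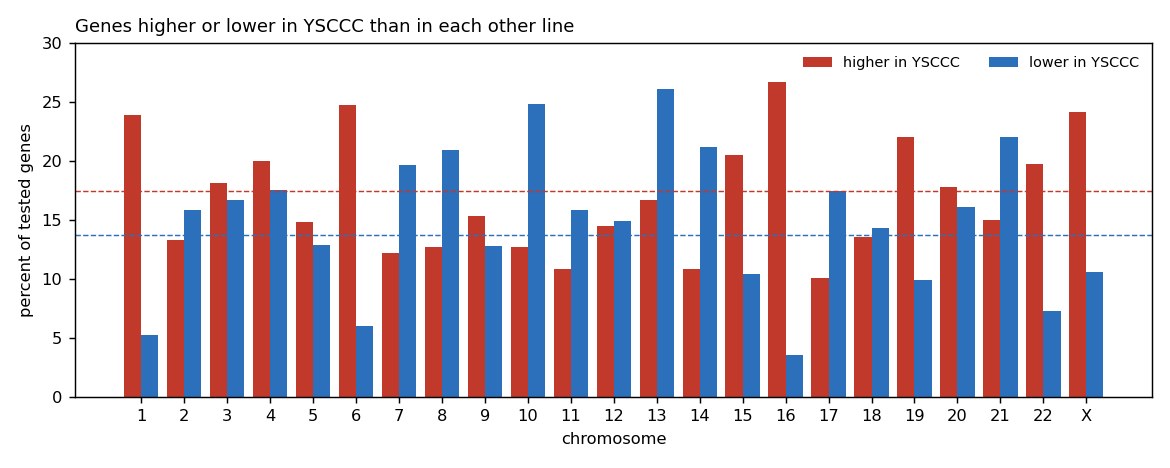
Percent of the genes tested on each chromosome that were higher (red) or lower (blue) in YSCCC than in each other line; dashed lines mark 17.4% and 13.7% over all genes. Chromosomes 16, 6, X and 1 have the highest shares of higher genes and chromosomes 13 and 10 the highest shares of lower genes.

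RNF213, the ubiquitin ligase the series targets in its other libraries, had 425, 377 and 523 CPM in YSCCC, against 397, 1268 and 438 CPM in HuCCT1 and 1272, 1010 and 1229 CPM in KKU-100. It was lower than in KKU-100 (log2 difference -1.41, SE 0.39, edgeR adjusted p = 0.0106) and was not called against HuCCT1 (-0.67, SE 0.39, adjusted p = 0.165), so YSCCC did not differ from both lines at this gene.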

How the data were processed

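Per the labels' protocols, libraries were made from 750 ng of RNA with a TruSeq mRNA kit. The submitters' processing notes name HTSeq 0.6.1p1, StringTie 2.1.6 and DESeq2 1.34.0, besides STAR 2.5.1b, FastQC 0.11.9 and Picard 1.139, with build GRCh38. How strand was handled in counting is not stated there. Per the file headers, the deposited values used are raw counts per gene, which entered every test. The deposited TPM values served only as a check of levels, and the FPKM, coverage and scaled columns were not used.

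One edgeR 4.0.16 fit (R 4.3.3, TMM factors, filterByExpr with a minimum count of 10 and a minimum total of 15) took the 9 shControl libraries with 1 mean per line, each other line weighing equally. Two-sided p-values were adjusted by Benjamini-Hochberg across 18010 genes. CPM use TMM-scaled totals. Ratios over lists and folds use a floor of 3 counts per library, which covers counting error only. Named genes were, per direction, the 15 with the largest smaller-of-both ratio and at least 5 CPM, and up to 6 called members per list; others are named where a small count or a region called for it, after their values were seen. Members and lists were chosen with earlier results of these data known. Fits were tested on simulated data. Promoter sequences are RefSeq (GRCh38.p14). Results of some genes are not reported here.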

Additional observations from a re-analysis of the deposited data

How the results depend on the processing

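The counts of calls over all genes kept within 1.5 times under TMM or relative log expression factors, DESeq2 1.42.0, other low-count filters and the shRNF213 libraries of the same lines. Against a tested fold of 1.5, lower genes numbered 1368 and genes differing from the mean of the other lines 6830. Leaving out 1 library gave 2751 to 3460 higher and 1864 to 2532 lower genes. With the shRNF213 libraries, 2688 (85.7%) of the higher and 1967 (79.9%) of the lower genes were called again. Without YSCCC replicate 3 and HuCCT1 replicate 2 together, 3337 were higher and 2322 lower. Relative log expression factors moved the median of all genes by 0.06 on the log2 scale against the mean of the lines. Of 275 called genes that the naming rule picked, 49 lost their call at a tested fold of 1.5, 37 without YSCCC replicate 2, 28 among the shRNF213 libraries and 11 with DESeq2. Of these 11, ALDH2, IFITM1, OAS2 and PHGDH had no adjusted p-value in DESeq2, which was counted as a lost call. Some list counts moved more than those over all genes. Lower Wnt genes numbered 3 with DESeq2 or relative log expression factors, against 5, and lower antigen presentation genes 3 among the shRNF213 libraries, against 6.

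The labels do not say whether the replicate numbers pair the lines. Deviations of libraries of the same number but different lines correlated at -0.314 to 0.063, and those of different numbers at -0.136 to 0.326. With 3 libraries per line, these values cannot show whether libraries of the same number were handled together. With the number as a replicate block, 2887 genes were higher and 2173 lower, and 24 interferon-stimulated genes were lower.

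Depth limits genes with few counts, whose log2 differences depend on the prior count. With 1 line per group, the differences hold for these lines; medium differs only against KKU-100.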

Other observations

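Some transcripts of other cell types were present in YSCCC at low to moderate levels. Of 16 tested stromal and immune genes, 5 were higher than in each other line (CDH5, LUM, DCN and LYZ among them) and none lower in edgeR, with 0 lower also at an unadjusted p of 0.05 and in DESeq2; 1 was lower without YSCCC replicate 3. Of the 5 higher genes, 2 had a mean under 3 counts per library in both other lines and could only be called higher. LYZ lost its call without HuCCT1 replicate 1 or 2. CDH5, the cadherin of endothelium, had 74.0, 57.5 and 13.8 CPM in YSCCC, against 0.0822, 0.612 and 0.0415 CPM in HuCCT1 and at most 0.0523 CPM in KKU-100. LUM, a keratan sulfate proteoglycan, had 117, 163 and 42.7 CPM in YSCCC, against 2.30, 2.17 and 11.6 CPM in HuCCT1 and 0.105, 0.135 and 0.0966 CPM in KKU-100. The summed level of the list was 280, 317 and 156 CPM in YSCCC, against 72.1, 131 and 103 CPM in HuCCT1 and 151, 93.0 and 112 CPM in KKU-100. The part of such cells in these differences was not tested. Among immune markers, YSCCC libraries had 0 counts of CD3E, 9 to 14 of PTPRC, 61 to 91 of CD14 and 1271 to 1840 of CD68. Among endothelial and stromal markers, they had 4 to 23 counts of VWF, 27 to 44 of PECAM1, 6 to 11 of PDGFRB, 68 to 84 of DCN, 185 to 286 of COL3A1 and 218 to 366 of COL1A1. CD68 averaged 58.5 CPM in YSCCC, 67.7 CPM in HuCCT1 and 84.6 CPM in KKU-100. In the same order, VWF averaged 0.502, 2.93 and 0.168 CPM, and PECAM1 averaged 1.33, 0.179 and 3.5 CPM. PDGFRB averaged 0.344, 0.535 and 1.16 CPM, and COL1A1 averaged 11.8, 18.7 and 1.49 CPM. These markers thus averaged highest in another line, while PTPRC, CD14, DCN and COL3A1 averaged highest in YSCCC.

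Runs of neighbouring genes, picked after their values were seen, were higher together. On chromosome 15 (GRCh38 23685400 to 25420336), NDN, SNRPN and SNURF, expressed from the paternal copy in normal tissue, had 0 counts in all 6 libraries of the other lines. They passed the filter on low counts only through YSCCC and could only be called higher. SNRPN had 10.9, 10.4 and 18.4 CPM in YSCCC, and SNHG14, which overlaps it, had 314, 296 and 238 CPM there. On chromosome 14, 10 immunoglobulin heavy chain genes passed the filter on low counts, 9 of them only through YSCCC, so their calls as higher were set by it. IGHE had 18.2, 20.9 and 4.35 CPM in YSCCC, against at most 0.0830 CPM in HuCCT1 and 0.575, 0.180 and 0.0483 CPM in KKU-100. The kallikrein genes KLK5, KLK6, KLK7 and KLK8 lie side by side on chromosome 19, and KLK5, a protease of the skin barrier, had 545, 396 and 262 CPM in YSCCC, against 0.205, 0.330 and 1.16 CPM in HuCCT1 and 2.25, 2.12 and 1.98 CPM in KKU-100. Among pregnancy-specific glycoprotein genes, PSG5 had 53.1, 33.3 and 19.7 CPM in YSCCC, against 0.822, 1.18 and 1.54 CPM in HuCCT1 and at most 0.0483 CPM in KKU-100. PSG genes are close copies whose reads may be shared.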
